A study of Mus musculus with 9 samples.

Results

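The matrix, integrin and metalloproteinase genes of Neuro-2a cells (N2a, a mouse neuroblastoma cell line) were followed across control cells, whose hairpin targets luciferase (shlucif), and cells with hairpins that target Arf1. They were chosen by name, as collagen, laminin, integrin, Mmp and Adamts genes, and by counts. Of 21899 genes in the table, 128 carried such a name, and 2 of them were dropped because every shlucif library had at least 20 read counts while every Arf1 hairpin library had at most 3. The 126 members left were 43 collagens, 11 laminin chains, 30 genes named after integrins, 23 Mmp genes and 19 Adamts genes. Because the counts of the control and of the Arf1 hairpin libraries entered the choice, the change of a member against shlucif is a description. Where it is called lower or higher, the threshold of the fit across all genes sorts the members and is not read as a test of them. The difference between the hairpins, which the choice did not use, is read as a test.

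RNA was sequenced from 9 libraries, 3 each of shlucif, shArf1-1 and shArf1-2. The Arf1 hairpins target the gene for a small GTPase that recruits the COPI coat to the Golgi. No other treatment, allele or time point is labelled, all libraries come from the same cell line, which the labels call neuroblast. The study's methods list lentiviral hairpin plasmids with puromycin resistance, and whether a line was a single clone is not given in the sources used here. Nothing in the labels ties a replicate number to a separate culture, so the spread between libraries may be technical. Library totals lay between 11182479 and 15594615 counts. Arf1 itself was at 324 ± 6.72 FPKM (fragments per kilobase of transcript, scaled to the library total) with shlucif. It was at 128 ± 1.73 FPKM with shArf1-1, and at 165 ± 6.92 FPKM with shArf1-2, each value a mean ± SD of n = 3 libraries. Its level was lower with shArf1-1 than with shArf1-2 by a log2 difference of 0.34 (standard error 0.05, adjusted p = 1.16e-05, from the quasi-likelihood test of edgeR, corrected by Benjamini-Hochberg over all genes tested).

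Cells sit on and in an extracellular matrix that they partly make themselves. Laminin trimers and the network of type IV collagen form the basement membrane, while fibrillar collagens form the interstitial fibres. Integrins are pairs of an alpha and a beta subunit that bind these ligands outside the cell and reach the actin cytoskeleton through talin and vinculin inside it. Metalloproteinases of the Mmp and Adamts families cut matrix proteins and cell surface proteins, and collagens, laminins and integrins all pass the endoplasmic reticulum and the Golgi on their way out. In neurons and neuroblasts, laminins and their integrin receptors are known for their part in neurite outgrowth and migration.

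The sequences just upstream of 4 members are shown because these genes carry the main patterns below. Mmp15 had the highest log2 change of all members against the control, Itga5 had the lowest among members with more than 100 counts in every library, Itgb1 is the partner subunit of Itga5 and the most abundant integrin, and Lama5 differed between the hairpins. The stretches are from RefSeq on GRCm38.p6, 5′ to 3′ on the strand of the gene, and lie at chr8:95352046-95352267 (plus strand, Mmp15), chr15:103366792-103367041 (minus strand, Itga5), chr8:128685404-128685653 (plus strand, Itgb1) and chr2:180225860-180226109 (minus strand, Lama5). The genes themselves span 95352268 to 95375080 on chromosome 8 (Mmp15), 103344286 to 103366763 on chromosome 15 (Itga5), 128685654 to 128733200 on chromosome 8 (Itgb1) and 180176373 to 180225859 on chromosome 2 (Lama5) in the GENCODE annotation of GRCm38. The stretches hold the 250 bases before the start annotated in RefSeq. That of Mmp15 is cut to 222 bases where an exon of Mmp15 annotated in GENCODE begins. For Itga5 the RefSeq start, 103366791, lies upstream of the GENCODE start, 103366763. Capitals mark the letters GGGCGG on either strand.
Mmp15: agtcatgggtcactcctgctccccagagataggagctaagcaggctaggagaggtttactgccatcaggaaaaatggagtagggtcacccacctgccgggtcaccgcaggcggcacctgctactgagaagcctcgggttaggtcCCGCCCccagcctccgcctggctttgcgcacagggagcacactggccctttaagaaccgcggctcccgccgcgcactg
Itga5: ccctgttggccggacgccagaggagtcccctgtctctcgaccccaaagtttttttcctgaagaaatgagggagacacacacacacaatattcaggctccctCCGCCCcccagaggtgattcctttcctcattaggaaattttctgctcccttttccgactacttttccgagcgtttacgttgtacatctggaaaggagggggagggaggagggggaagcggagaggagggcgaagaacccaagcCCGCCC
Itgb1: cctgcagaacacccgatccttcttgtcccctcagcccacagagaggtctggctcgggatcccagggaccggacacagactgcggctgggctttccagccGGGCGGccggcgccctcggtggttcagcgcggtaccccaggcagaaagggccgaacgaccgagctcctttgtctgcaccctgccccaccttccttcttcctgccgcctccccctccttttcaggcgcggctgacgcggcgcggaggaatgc
Lama5: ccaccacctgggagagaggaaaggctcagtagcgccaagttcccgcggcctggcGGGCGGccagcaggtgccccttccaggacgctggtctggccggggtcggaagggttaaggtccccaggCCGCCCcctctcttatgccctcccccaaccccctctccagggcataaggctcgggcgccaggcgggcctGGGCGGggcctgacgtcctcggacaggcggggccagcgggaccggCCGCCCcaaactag

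The motif GGGCGG, read on both strands, was present once upstream of Mmp15, once upstream of Itgb1, at 2 places upstream of Itga5 and at 4 places upstream of Lama5. It is held by 32.7% of 32851 RefSeq windows of 250 bases. Of the 88 members with such a window, 41 hold it in any of their windows, a count by gene and not by window. The letters CCAAT, held by 33.8% of all windows, were not in the 4 stretches on either strand. Nor were TATAAA, held by 12.4% of windows, or TGANTCA (N is any base), held by 6.75% of windows. With no other motif found in these stretches, none overlaps GGGCGG there. Col4a1 and Col4a2, which lie head to head on chromosome 8, start 21 bases apart at positions 11312826 on the minus strand and 11312805 on the plus strand of GRCm38, so that each window is covered by an exon of the other gene, and no stretch is printed for them. Reads from the few bases that both transcripts share cannot be told apart unless the counting used strand, which is not given in the sources used here.

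**Figure D1:**
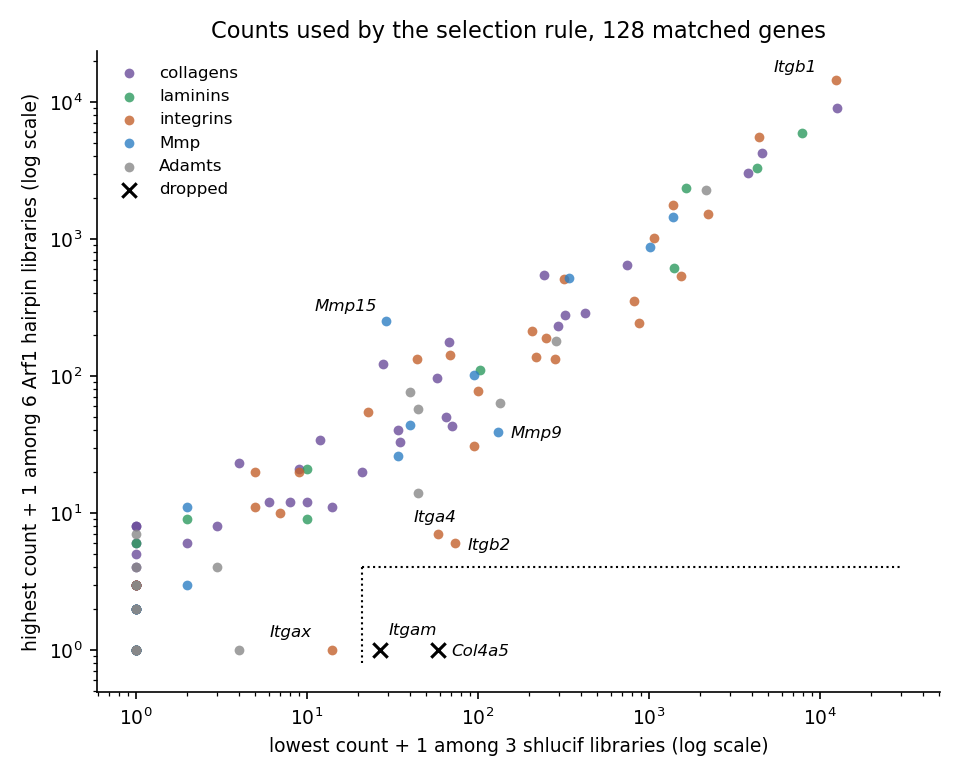
Lowest count plus 1 among the 3 shlucif libraries (horizontal, log scale) against the highest count plus 1 among the 6 Arf1 hairpin libraries (vertical, log scale) for each of the 128 matched genes, coloured by family, with the limits of the count rule as dotted lines. Col4a5 and Itgam (crosses) are dropped, Itgax, Itga4 and Itgb2 lie just outside the dotted corner and are kept, and Mmp15 lies above the bulk of the genes.

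Of the 2 dropped genes, Col4a5, a chain of type IV collagen, had 74, 58 and 97 counts with shlucif and 0 in all 6 Arf1 hairpin libraries. Itgam, the alpha subunit of the complement receptor of macrophages and granulocytes, had 26, 32 and 27 counts with shlucif and 0 in the others. Members just inside the limit were close to this pattern. Itgax had 14, 19 and 13 counts with shlucif, under the required 20, and 0 with every Arf1 hairpin. Itga4 went from 58, 60 and 62 counts to between 1 and 6, and Itgb2 from 102, 79 and 73 counts to between 0 and 5. Adamts7 had 58, 44 and 51 counts with shlucif and between 0 and 13 with the Arf1 hairpins, and Adamts2 had 8, 3 and 3 counts and 0 in the other libraries.

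Many members were not expressed in these cells. There were 17 members at 0 in all 9 libraries and 48, these included, with at most 5 counts in every library. The silent group held Col3a1, a main fibrillar collagen of connective tissue, Lama1, the first laminin alpha chain of the embryo, Itgb8, Mmp3, Mmp7, Mmp10 and Adamts5, and nearly silent were Col1a2, the partner chain of Col1a1, Mmp14 and Mmp13. The low-count filter left 65 of the 126 members to test, of 22 collagens, 6 laminins, 23 integrin genes, 8 Mmp and 6 Adamts genes. Of these, 4 passed the filter through the shlucif libraries alone (Itgax, Itgb2, Itga4 and Col6a2), so a lower level with the Arf1 hairpins was bound to be seen for them. The 61 members not tested had at most 12 counts in any library.

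As a sum, members made up between 0.535% and 0.557% of the counts of a shlucif library, between 0.370% and 0.381% with shArf1-1 and between 0.399% and 0.414% with shArf1-2. Their summed level was 869 to 903 FPKM with shlucif, 615 to 624 with shArf1-1 and 658 to 684 with shArf1-2, so the 3 groups of libraries did not overlap. Against shlucif, 39 of the 65 tested members were lower with the Arf1 hairpins at an adjusted p under 0.05 and 7 were higher. The background was 32.9% of 12448 genes lower and 31.6% higher. A log2 change of at least 1 was reached downward by 21 members, beside 9.33% of all genes, and upward by 4, beside 4.68%. All 6 Arf1 hairpin libraries lay below all 3 shlucif libraries for 39 tested members, beside 30.1% of all genes, and above them for 7, beside 27.9%. The median log2 change was -0.58 over the tested members and 0.00 over all genes tested. Since the choice of members used this contrast, nothing is read from these counts. With shArf1-1, 42 tested members were lower and 7 higher, with a median log2 change of -0.72, beside 4282 of all 12448 genes lower and 4124 higher. With shArf1-2, 39 were lower and 9 higher, with a median of -0.56, beside 4054 of all genes lower and 3843 higher. These comparisons share the control libraries.

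**Figure D2:**
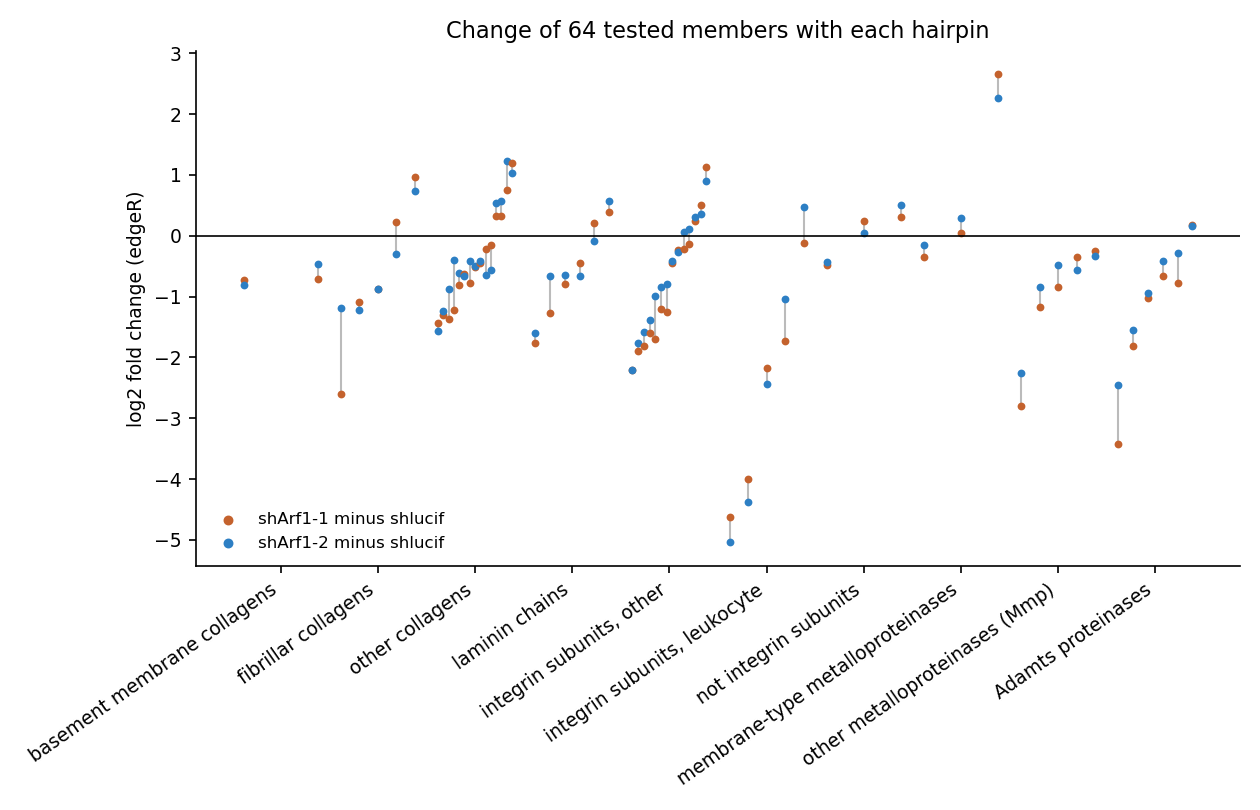
Log2 fold change of 64 tested members with shArf1-1 (orange) and shArf1-2 (blue) against shlucif (vertical), ordered by change within each role (horizontal), a grey line joining the values of a gene. Itgax, at 0 in all Arf1 hairpin libraries, is left out. Most points lie below 0, the leukocyte integrin subunits reach below -4, and Mmp15 stands above 2.

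Basement membrane collagens led their family. Col4a2 and Col4a1, the chains of the common type IV collagen trimer, had the highest mean levels of all collagens with shlucif. With both Arf1 hairpins the mean of Col6a5 was above that of Col4a1. Col4a2 was at 142, 143 and 139 FPKM with shlucif, at 85.4, 92.8 and 87.0 with shArf1-1 and at 87.1, 84.6 and 83.9 with shArf1-2. All 6 Arf1 hairpin libraries were lower than the controls and the hairpin groups overlapped. Col4a1 was at 37.3, 38.3 and 37.5 FPKM with shlucif, at 22.7, 25.3 and 23.4 with shArf1-1 and at 27.6, 29.7 and 28.9 with shArf1-2. Here the hairpin groups stood apart, with shArf1-2 between shArf1-1 and the control. The log2 change with the Arf1 hairpins was -0.77 (standard error 0.05) for Col4a2 and -0.58 (standard error 0.07) for Col4a1. Between the hairpins Col4a1 differed by 0.25 on the log2 scale (95% interval 0.15 to 0.36, edgeR, adjusted p = 0.000931), while for Col4a2 the difference was -0.07 (95% interval -0.17 to 0.03, edgeR, adjusted p = 0.373). The ratio of Col4a2 to Col4a1 in FPKM was 3.76 ± 0.06 with shlucif, 3.72 ± 0.05 with shArf1-1 and 2.97 ± 0.16 with shArf1-2 (SD, n = 3 each), and the highest ratio with shArf1-2, 3.16, was below the lowest with shArf1-1, 3.67. Of the 5 basement membrane collagens among the members, Col4a6 was at 0 and Col4a3 and Col4a4 were not tested.

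Laminins are trimers of an alpha, a beta and a gamma chain. Lamc1, the common gamma chain, was the most abundant at 70.6, 73.7 and 70.2 FPKM with shlucif, 41.9, 44.1 and 42.5 with shArf1-1 and 49.1, 45.8 and 49.0 with shArf1-2. Lama5, the alpha chain of the main laminin of adult basement membranes, was at 27.2, 31.7 and 27.6 FPKM with shlucif, 11.6, 14.5 and 11.4 with shArf1-1 and 17.9, 21.4 and 18.1 with shArf1-2. Lamb2, the beta chain of the synaptic laminins, was at 19.8, 17.2 and 17.9 FPKM with shlucif, 5.78, 5.90 and 5.07 with shArf1-1 and 6.85, 6.17 and 5.98 with shArf1-2. In all of these the Arf1 hairpin libraries lay below the controls, and for each the shArf1-2 libraries lay above those of shArf1-1. Their log2 changes against shlucif were -0.72 (standard error 0.05) for Lamc1, -0.93 (standard error 0.20) for Lama5 and -1.68 (standard error 0.08) for Lamb2.

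Lama4, an alpha chain of vascular and nerve basement membranes, went the other way. It was at 9.98, 10.2 and 10.1 FPKM with shlucif, at 11.6, 12.1 and 12.5 with shArf1-1 and at 10.2, 10.2 and 9.52 with shArf1-2. The shArf1-1 libraries were above all others, and those of shArf1-2 overlapped the control. The hairpin difference was -0.29 for Lama4 (95% interval -0.41 to -0.18, edgeR, adjusted p = 0.000385) and 0.60 for Lama5 (95% interval 0.39 to 0.81, edgeR, adjusted p = 0.00111). The level of Lama5 was 2.85 ± 0.21 times that of Lama4 with shlucif, 1.04 ± 0.14 times with shArf1-1 and 1.92 ± 0.18 times with shArf1-2 (FPKM ratios, SD, n = 3 each). Lamc1 differed between the hairpins by 0.15 (95% interval 0.04 to 0.25, edgeR, adjusted p = 0.0467), a call lost without shArf1-1 replicate 1 (adjusted p = 0.165), without shArf1-1 replicate 3 (0.0997), without shArf1-2 replicate 1 (0.194) or replicate 3 (0.181), without shlucif replicate 2 (0.0535) or replicate 3 (0.0600), and in the fit of the 6 Arf1 hairpin libraries alone (0.0519). For Lamb2 the difference of 0.17 did not pass (95% interval 0.00 to 0.34, edgeR, adjusted p = 0.184). Of the other chains, Lamc3 gave 0.48 (standard error 0.36), and Lama2, Lama3, Lamb1 and Lamb3 were too low to test.

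**Figure D3:**
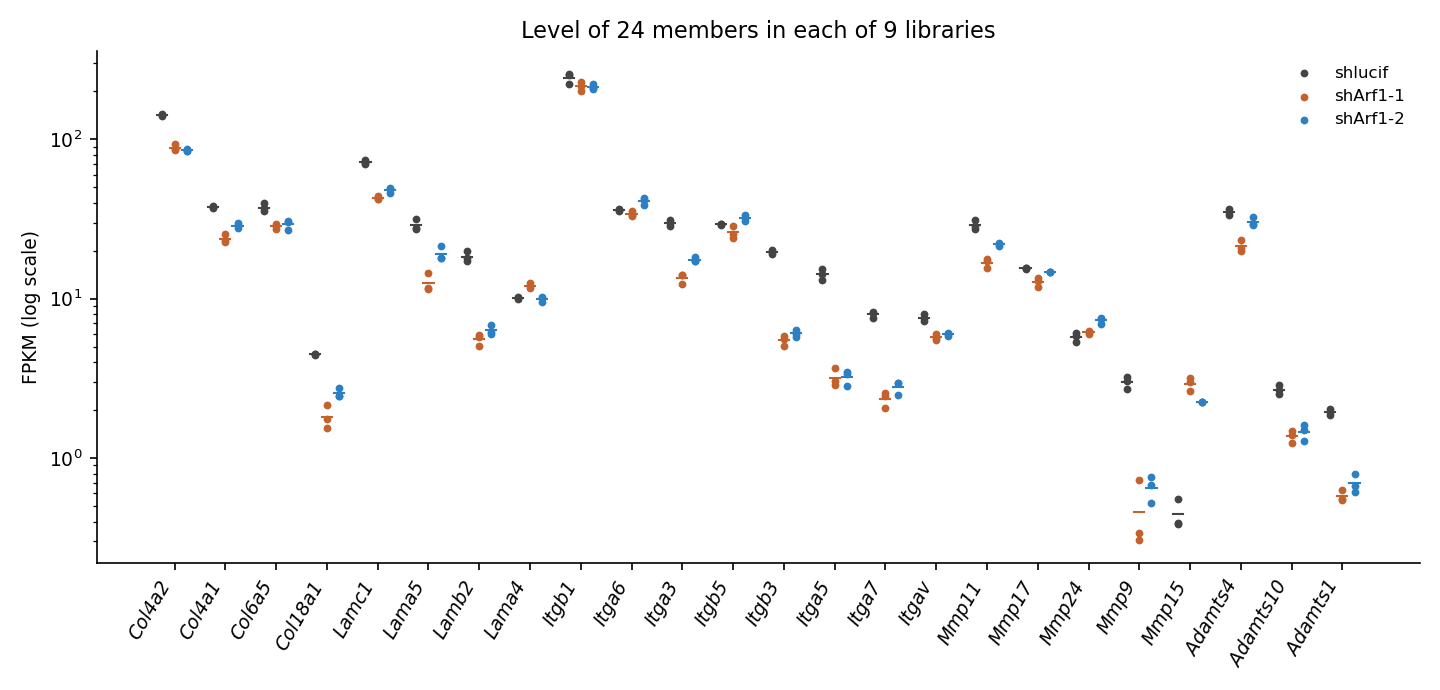
FPKM (vertical, log scale) of 24 members in each of the 9 libraries, shlucif in grey, shArf1-1 in orange and shArf1-2 in blue, with a bar at the mean of 3 libraries. The integrin subunits Itga5, Itgb3 and Itga7 fall far below their control level, Itgb1 ranges from 200 to 257 FPKM over all 9 libraries, and Mmp15 is the gene whose control libraries are lowest.

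Fibrillar collagens were low. None of the 11 reached a mean of 1 FPKM with shlucif. Col1a1, a chain of type I collagen, had 82, 64 and 84 counts with shlucif, 14, 7 and 17 with shArf1-1 and 33, 28 and 49 with shArf1-2. It was lower with both Arf1 hairpins, and the hairpins stood apart by a log2 difference of 1.41 (95% interval 0.76 to 2.06, edgeR, adjusted p = 0.00229), the most of any tested member. Its partner chain Col1a2 had at most 5 counts in any library. Col5a3 was lower by a log2 change of -1.15 (standard error 0.20) and Col2a1, the cartilage collagen, by -0.88 (standard error 0.30). Col11a2, a minor fibril chain, was higher instead, with 89, 80 and 67 counts with shlucif, 154, 131 and 175 with shArf1-1 and 147, 152 and 130 with shArf1-2, a log2 change of 0.86 (standard error 0.14).

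Of the 27 other collagens, 15 were tested, 7 of them lower and 3 higher with the Arf1 hairpins, beside 32.9% of all genes tested lower and 31.6% higher. Col6a5, a type VI alpha chain, was at 35.3, 39.8 and 36.9 FPKM with shlucif, 27.2, 29.3 and 28.6 with shArf1-1 and 30.2, 30.8 and 27.0 with shArf1-2. Col18a1, a basement membrane proteoglycan whose end fragment is endostatin, was at 4.44, 4.52 and 4.50 FPKM with shlucif, 1.75, 2.14 and 1.55 with shArf1-1 and 2.77, 2.46 and 2.46 with shArf1-2. Its log2 change against shlucif was -1.10 (standard error 0.13), and the hairpins differed by 0.50 (95% interval 0.26 to 0.73, edgeR, adjusted p = 0.00284). Col6a1, another type VI chain, differed between the hairpins by 0.35 (95% interval 0.13 to 0.57, edgeR, adjusted p = 0.0255).

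Among collagens higher than in the control, Col20a1 had 27, 45 and 35 counts with shlucif, 49, 63 and 68 with shArf1-1 and 81, 122 and 70 with shArf1-2. Col17a1, a transmembrane collagen of hemidesmosomes, had 15, 11 and 12 counts with shlucif and between 25 and 33 with the Arf1 hairpins. Col7a1, the collagen of anchoring fibrils, was at 1.97, 2.09 and 1.73 FPKM with shlucif, 2.38, 2.90 and 2.28 with shArf1-1 and 2.27, 3.93 and 2.71 with shArf1-2. The log2 changes were 1.02 (standard error 0.26) for Col20a1, 1.12 (standard error 0.29) for Col17a1 and 0.44 (standard error 0.15) for Col7a1. Col7a1 did not pass the threshold without shlucif replicate 1 (log2 change 0.46) or without shlucif replicate 3 (0.37).

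Integrin subunits other than those of leukocytes numbered 18, of which 14 were tested, 9 of them lower and 2 higher, beside 32.9% of all genes tested lower and 31.6% higher. Itgb1, the beta subunit shared by most matrix-binding integrins, was by far the most abundant, at 221, 252 and 257 FPKM with shlucif, 216, 200 and 227 with shArf1-1 and 221, 207 and 210 with shArf1-2. In FPKM its groups overlapped. After TMM scaling, which divides by a factor between 0.962 and 0.983 for the controls and between 1.005 and 1.032 for the others, the Arf1 hairpin libraries were all lower, with a log2 change of -0.25 (standard error 0.05). Itgb3, the beta subunit of the vitronectin receptor, was at 19.1, 19.5 and 20.3 FPKM with shlucif, 5.62, 5.86 and 5.02 with shArf1-1 and 6.02, 5.78 and 6.38 with shArf1-2, far apart from the control with both hairpins. The level of Itgb1 was thus 12.4 ± 0.70 times that of Itgb3 with shlucif, 39.3 ± 5.66 times with shArf1-1 and 35.2 ± 1.94 times with shArf1-2 (FPKM ratios, SD, n = 3 each). Itgb4, the laminin-binding subunit of hemidesmosomes, was lower by a log2 change of -1.48 (standard error 0.12).

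Among the alpha subunits, Itga5, the fibronectin receptor subunit, was at 15.4, 14.4 and 13.0 FPKM with shlucif, 3.69, 3.05 and 2.86 with shArf1-1 and 3.37, 3.49 and 2.82 with shArf1-2, a log2 change of -2.21 (standard error 0.09). Between the hairpins its difference was 0.00 (95% interval -0.23 to 0.23). Itga6, a laminin receptor subunit, was at 36.1, 36.5 and 35.6 FPKM with shlucif, 33.3, 33.1 and 35.6 with shArf1-1 and 41.4, 42.9 and 38.7 with shArf1-2. For Itga6 the hairpins went opposite ways, with a log2 change of -0.14 with shArf1-1 and 0.11 with shArf1-2 against shlucif, and a hairpin difference of 0.25 (95% interval 0.15 to 0.35, edgeR, adjusted p = 0.000579). The level of Itga6 was 2.54 ± 0.19 times that of Itga5 with shlucif, 10.8 ± 1.71 times with shArf1-1 and 12.8 ± 0.84 times with shArf1-2 (FPKM ratios, SD, n = 3 each).

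Itga3, which pairs with Itgb1 to bind laminins, was at 31.2, 29.7 and 28.4 FPKM with shlucif, 14.1, 14.02 and 12.3 with shArf1-1 and 18.2, 17.2 and 17.2 with shArf1-2. All 3 groups stood apart, with a hairpin difference of 0.37 (95% interval 0.23 to 0.50, edgeR, adjusted p = 0.000137). Itga7, the laminin receptor of muscle, was at 8.31, 7.53 and 8.13 FPKM with shlucif and between 2.06 and 2.98 with the Arf1 hairpins. Itga2b, the platelet fibrinogen receptor subunit, had 217, 242 and 224 counts with shlucif, 76, 70 and 63 with shArf1-1 and 119, 137 and 116 with shArf1-2. Its hairpin difference of 0.69 (95% interval 0.36 to 1.03, edgeR, adjusted p = 0.00335) did not pass without shArf1-1 replicate 3, at 0.49 (adjusted p = 0.0544). Itga2, a collagen receptor subunit, differed between the hairpins by 0.46 (95% interval 0.17 to 0.75, edgeR, adjusted p = 0.0269), and Itgb5, a vitronectin receptor subunit, by 0.28 (95% interval 0.15 to 0.42, edgeR, adjusted p = 0.00229). Itgb5 was at 28.8, 29.3 and 29.6 FPKM with shlucif, with the shArf1-1 libraries below (24.2 to 28.7) and the shArf1-2 libraries above (30.5 to 33.7). Itgav, the alpha partner of Itgb3 and Itgb5, was lower by a log2 change of -0.43 (standard error 0.06).

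Of these 14 subunits, 2 were higher. Itga8, which pairs with Itgb1, had 43, 53 and 55 counts with shlucif, 118, 82 and 131 with shArf1-1 and 120, 89 and 98 with shArf1-2, a log2 change of 1.01 (standard error 0.17). Itga1, a collagen receptor subunit, was at 1.25, 1.61 and 1.53 FPKM with shlucif, 1.79, 1.90 and 1.71 with shArf1-1 and 1.84, 2.05 and 1.83 with shArf1-2, a log2 change of 0.28 (standard error 0.09), and it did not pass without shlucif replicate 1 (0.18). The name rule also took in 4 genes that are not subunits, of which Itgb1bp1, a cytoplasmic binding protein of Itgb1, was lower by a log2 change of -0.45 (standard error 0.11), Itgb3bp, which is also a centromere protein, gave 0.14 (standard error 0.17), Itgbl1 gave 0.41 (standard error 0.28) and Itgb1bp2 was too low to test.

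Of 8 integrin subunits of leukocytes, 6 were tested and 5 of these were lower, beside 32.9% of all genes tested. For Itgax, Itgb2 and Itga4, which passed the low-count filter through the shlucif libraries alone and lie nearest the limit of the count rule, a fall was fixed by these choices, and nothing is read from the count. Itgb2, the beta subunit of the leukocyte integrins, was at 2.42, 1.93 and 1.76 FPKM with shlucif and between 0 and 0.131 with the Arf1 hairpins, a log2 change of -4.83 (standard error 0.36). Itga4, which pairs with Itgb1 or Itgb7, had a log2 change of -4.19 (standard error 0.32). Itgax, an alpha partner of Itgb2, was at least 5.2-fold lower, taking 3 counts per library as the floor. Itgb7, a beta partner of Itga4, had 133, 118 and 94 counts with shlucif, 26, 28 and 21 with shArf1-1 and 12, 30 and 27 with shArf1-2. Itgal, the alpha subunit of lymphocytes, had 133, 100 and 112 counts with shlucif, 42, 34 and 26 with shArf1-1 and 55, 77 and 50 with shArf1-2. Itgae, with 11, 10 and 8 counts with shlucif and between 6 and 19 with the Arf1 hairpins, overlapped the control, and none of the 6 passed between the hairpins.

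**Figure D4:**
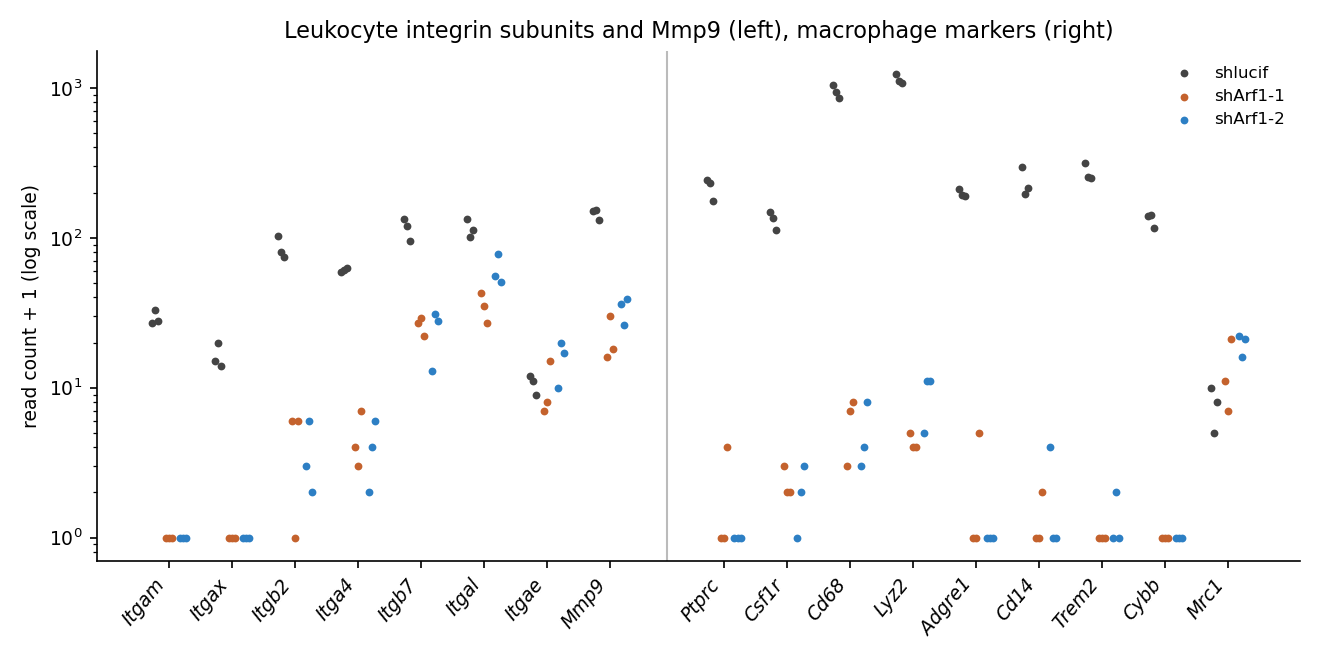
Read count plus 1 (vertical, log scale) in each library for leukocyte integrin subunits and Mmp9 (left; Itgam was dropped from the members) and for macrophage markers (right), with shlucif in grey, shArf1-1 in orange and shArf1-2 in blue. All markers on the right but Mrc1 lie above 100 counts in every shlucif library and at 10 counts or fewer in every Arf1 hairpin library.

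Macrophage and microglia markers were read beside these subunits. Of a list of 20 that are not members, 17 were tested, 16 of them were lower with the Arf1 hairpins and 1 (Mrc1, the mannose receptor, at most 21 counts) was higher. Of all genes tested, 32.9% were lower and 31.6% higher. Of the 17, 14 passed the low-count filter through the shlucif libraries alone and 1 through the Arf1 hairpin libraries alone. For these a fall or a rise was bound to be seen, and nothing is read from their count. The summed level of all 20 was 232 to 271 FPKM with shlucif, 20.8 to 23.2 with shArf1-1 and 21.2 to 21.6 with shArf1-2. Cd68, a lysosomal protein of macrophages, had 1050, 938 and 849 counts with shlucif and between 2 and 7 with the Arf1 hairpins. Ptprc, the pan-leukocyte protein CD45, had 241, 231 and 175 counts with shlucif and between 0 and 3 in the others. Cybb, C1qb and C1qc were at 0 in all 6 Arf1 hairpin libraries, and Aif1 and Cx3cr1, markers of microglia, had at most 5 counts in every library. In bulk RNA, fewer cells of a type and less RNA per cell cannot be told apart. The part of these markers in the levels of Itgb2, Itga4, Itgax, Itgb7, Itgal and Mmp9 was not tested.

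Of 15 neuronal and noradrenergic neuroblastoma markers, 13 were tested, 10 were higher and 1 (Map2) lower. Each count of called genes in this paragraph stands beside 32.9% of all genes tested lower and 31.6% higher. The summed level of the neuronal and neuroblastoma markers was 900 to 930 FPKM with shlucif, 1659 to 1810 with shArf1-1 and 1541 to 1627 with shArf1-2. Phox2a, Tubb3 and Chga were present in every library, at 2176 counts or more, and Nefm was at 0. Of 12 fibroblast and endothelial markers, 7 were tested and 4 were lower, among them Acta2, smooth muscle actin, at 568, 459 and 486 counts with shlucif and between 16 and 36 with the Arf1 hairpins. Their summed level was 26.7 to 29.2 FPKM with shlucif, 5.05 to 5.402 with shArf1-1 and 6.15 to 6.77 with shArf1-2, while Lum, Tcf21, Tie1 and Emcn had at most 1 count in any library. Of 8 Schwann cell and glial markers, Sox10, Aqp4 and Olig2 were at 0, and Mbp was the 1 that was lower. The part of the fibroblast and endothelial markers in the levels of the collagens was not tested.

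Among the metalloproteinases, Mmp15, a membrane-type enzyme, had 41, 28 and 29 counts with shlucif, 177, 191 and 251 with shArf1-1 and 179, 164 and 171 with shArf1-2. In FPKM this was 0.444 ± 0.09 with shlucif, 2.92 ± 0.28 with shArf1-1 and 2.25 ± 0.01 with shArf1-2 (SD, n = 3 each), a log2 change of 2.47 (standard error 0.19), the highest of the tested members. Between the hairpins Mmp15 was lower with shArf1-2 by a log2 difference of -0.39 (95% interval -0.66 to -0.12, edgeR, adjusted p = 0.0436). This difference lost its call with DESeq2 (adjusted p = 0.0672), with library size scaling (0.0570) or upper quartile scaling (0.0563), with limma on log2(FPKM + 1) (0.0519) or log2(FPKM + 0.1) (0.136), without shArf1-1 replicate 2 (0.119) or 3 (0.115), and without shArf1-2 replicate 1 (0.106), 2 (0.120) or 3 (0.107).

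Mmp17, another membrane-type enzyme, was at 15.6, 15.6 and 15.4 FPKM with shlucif, 13.6, 12.9 and 11.8 with shArf1-1 and 14.8, 14.6 and 14.8 with shArf1-2. Its hairpin difference was 0.19 (95% interval 0.07 to 0.32, edgeR, adjusted p = 0.0341), which did not pass without shArf1-1 replicate 3 (adjusted p = 0.199) or without shArf1-2 replicate 1 (0.104), 2 (0.0624) or 3 (0.102). Mmp24, a membrane-type enzyme of neurons, was at 6.06, 5.79 and 5.37 FPKM with shlucif, 6.01, 6.30 and 6.19 with shArf1-1 and 7.56, 7.50 and 6.98 with shArf1-2. Its hairpin difference of 0.24 (95% interval 0.06 to 0.41) did not pass over all genes tested (edgeR, adjusted p = 0.0624), and it did pass with library size scaling (0.0445), upper quartile scaling (0.0438), limma on log2(FPKM + 1) (0.0403) and limma on log2(FPKM + 0.1) (0.0422). Mmp14, the best known membrane-type enzyme, had 2 counts in 1 shlucif library and 0 in the other 8.

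The secreted enzymes were led by Mmp11, stromelysin-3, at 31.0, 27.2 and 28.6 FPKM with shlucif, 17.2, 17.8 and 15.5 with shArf1-1 and 21.3, 22.1 and 22.2 with shArf1-2. Its log2 change was -0.64 (standard error 0.10), and the hairpins differed by 0.37 (95% interval 0.22 to 0.52, edgeR, adjusted p = 0.000686). Mmp9, the gelatinase B that leukocytes also make, had 149, 152 and 130 counts with shlucif, 15, 29 and 17 with shArf1-1 and 35, 25 and 38 with shArf1-2, a log2 change of -2.49 (standard error 0.22). The hairpin difference of Mmp9, 0.54 (95% interval -0.05 to 1.12, edgeR, adjusted p = 0.231), passed without shArf1-1 replicate 2, at 1.00 (adjusted p = 0.0247). Mmp19 was lower by a log2 change of -0.995 (standard error 0.26), and Mmp2, the gelatinase A of fibroblasts, had at most 10 counts in any library.

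Adamts proteinases, secreted enzymes that cut proteoglycans and procollagens, were mostly low, with 4 of 19 at 0 in all libraries and 6 tested. Adamts4, an aggrecanase, was the most abundant at 36.6, 33.6 and 34.7 FPKM with shlucif, 20.7, 23.2 and 19.9 with shArf1-1 and 32.5, 29.4 and 28.9 with shArf1-2. The shArf1-1 libraries lay far below the others, and those of shArf1-2 just below the control. The hairpin difference was 0.49 (95% interval 0.36 to 0.62, edgeR, adjusted p = 1.12e-06), the smallest adjusted p among the members. Against shlucif the log2 change with both hairpins together was -0.51 (standard error 0.15), and it did not pass without shlucif replicate 1 (-0.47). In the fit of the 3 groups, the log2 change was -0.78 with shArf1-1 and -0.28 with shArf1-2 (standard error 0.06 each). Adamts10, which acts on fibrillin microfibrils, was at 2.51, 2.86 and 2.67 FPKM with shlucif and between 1.25 and 1.61 with the Arf1 hairpins. Adamts1, another aggrecanase, had 143, 145 and 134 counts with shlucif, 42, 33 and 45 with shArf1-1 and 62, 48 and 46 with shArf1-2. Adamts7 had a log2 change of -2.85 (standard error 0.38), with the counts given above.

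Between the hairpins, 16 of the 65 tested members passed, 14 higher with shArf1-2 and 2 (Lama4 and Mmp15) lower. That was 21.5% and 3.08% of the tested members, beside 6.98% and 7.46% of all 12448 genes. At an unadjusted p under 0.05, 21 of the 65 tested members differed, beside 3405 of all 12448 genes. Of the 14, 12 were also lower than shlucif in the fit of all Arf1 hairpin libraries, so that for these the shArf1-2 level lay nearer to the control, and the other 2 were Itga6 and Itgb5. The median hairpin difference was 0.13 over the tested members and 0.00 over all genes. The members that differed came from each family, with 4 of 22 collagens, 3 of 6 laminins, 5 of 23 integrin genes, 3 of 8 Mmp genes and 1 of 6 Adamts genes. Beside this, Arf1 was higher with shArf1-2 than with shArf1-1, as given above, and its part in these differences was not tested.

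**Figure D5:**
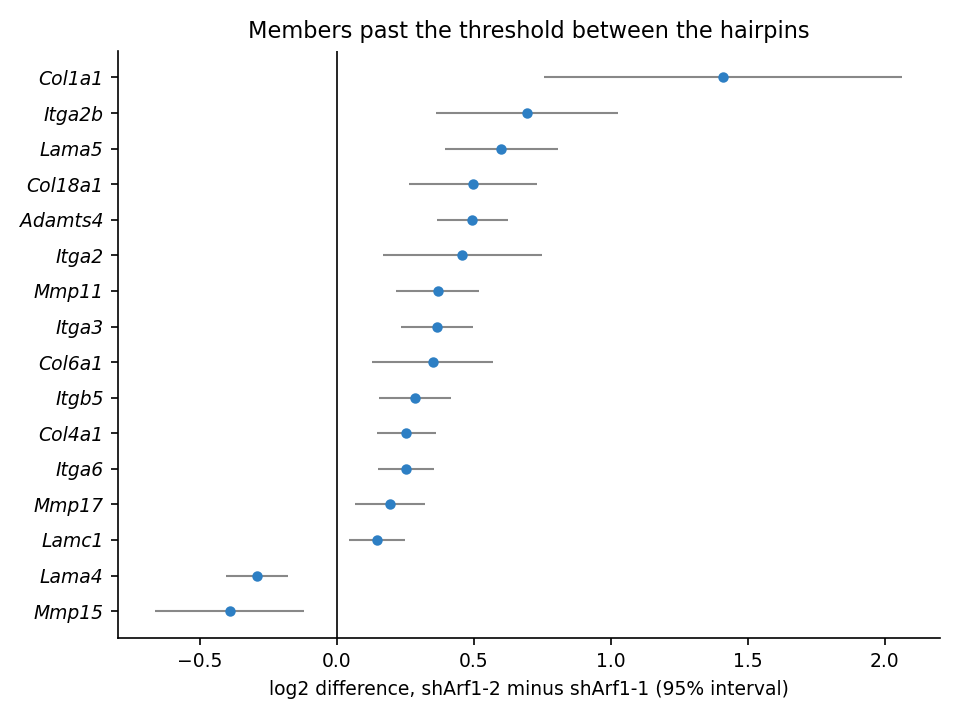
Log2 difference, shArf1-2 minus shArf1-1 (horizontal), with its 95% interval for the 16 members (vertical) past the threshold in edgeR's test. Col1a1 has the largest difference, 1.41, with the widest interval, and Lama4 and Mmp15 are the 2 members to the left of 0.

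Other genes of the same pathways were read from lists that hold no member. They were called against shlucif by the same threshold over all genes tested, and each count below stands beside 32.9% of all genes lower and 31.6% higher. Of 33 integrin adaptors and focal adhesion proteins, 32 were tested, 24 lower and 6 higher with the Arf1 hairpins. The median log2 change of the tested genes was -0.44. The largest fall was that of Tns3, a tensin, with 320, 296 and 304 counts with shlucif and between 0 and 4 with the Arf1 hairpins. Tns3 passed the low-count filter through the shlucif libraries alone, so a fall was bound to be seen. Next were Ptk2b, a focal adhesion kinase relative, by -3.92 (standard error 0.22), and Fermt3, the kindlin of blood cells, by -3.24 (standard error 0.23). Parvg, a parvin of blood cells, changed by -2.26 (standard error 0.20). The part of the macrophage markers above in the levels of Ptk2b, Fermt3 and Parvg was not tested. The largest rise was that of Fermt1, another kindlin, with at most 4 counts with shlucif and between 12 and 22 with the Arf1 hairpins. Fermt1 passed the low-count filter through the Arf1 hairpin libraries alone, so a rise was bound to be seen. Vcl, vinculin, was at 26.3 ± 0.98 FPKM with shlucif, 7.43 ± 0.14 with shArf1-1 and 8.24 ± 0.38 with shArf1-2 (SD, n = 3 each), a log2 change of -1.81 (standard error 0.06). Tln1, the talin that activates integrins, changed by -1.08 (standard error 0.06), Actn1, an alpha-actinin, by -1.02 (standard error 0.05) and Flna, filamin A, by -0.77 (standard error 0.05). Src, a tyrosine kinase of focal adhesions, was higher by 0.44 (standard error 0.07), and Parva, a parvin of the complex with integrin-linked kinase, by 0.30 (standard error 0.08). Ilk, the integrin-linked kinase itself, had at most 2 counts in any library and was not tested.

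Of 35 other basement membrane and matrix proteins, 20 were tested, 9 lower and 3 higher, with a median log2 change of -0.15. Sparc, a collagen-binding matricellular protein, changed by -1.99 (standard error 0.06), Agrn, agrin, by -0.71 (standard error 0.11) and Hspg2, perlecan, by -0.54 (standard error 0.08). Fn1, the fibronectin that Itga5 binds, was at 73.4 ± 2.84 FPKM with shlucif, 65.0 ± 6.92 with shArf1-1 and 81.6 ± 1.72 with shArf1-2 (SD, n = 3 each) and did not pass against shlucif with both hairpins together (log2 change -0.07, standard error 0.10). With shArf1-1 alone it was lower by a log2 change of -0.23 (edgeR, adjusted p = 0.000658), with shArf1-2 it did not pass (0.08, edgeR, adjusted p = 0.215), and the hairpins differed by 0.31 (95% interval 0.19 to 0.43, edgeR, adjusted p = 0.000242). Emilin1, an elastic fibre glycoprotein, was higher by 0.93 (standard error 0.10).

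Of 29 genes of collagen synthesis, modification and crosslinking, 23 were tested, 9 higher and 7 lower, with a median log2 change of 0.15, and these shares are close to those of all genes. The prolyl 4-hydroxylase subunits went opposite ways, P4ha1 by -0.84 (standard error 0.07) and P4ha2 by 0.51 (standard error 0.08). Pxdn, a peroxidase that crosslinks type IV collagen, was higher by 0.74 (standard error 0.06), while Bmp1, the procollagen C-proteinase, changed by -0.71 (standard error 0.07). Lox, the founding lysyl oxidase, was at 0 in all libraries. Mia3, the exit factor for bulky collagens at the endoplasmic reticulum, was higher by 0.34, with 3246, 3250 and 3285 counts with shlucif, 4128, 3698 and 5354 with shArf1-1 and 4551, 3954 and 4098 with shArf1-2.

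Of 15 other matrix receptors, 13 were tested, 6 lower and 5 higher, with a median of 0.00. Cd44, the hyaluronan receptor that leukocytes also carry, had 346, 328 and 272 counts with shlucif and between 0 and 3 with the Arf1 hairpins. Cd44 passed the low-count filter through the shlucif libraries alone, so a fall was bound to be seen. Ddr2, a collagen receptor kinase, was higher by 0.76 (standard error 0.05), and Dag1, dystroglycan, gave 0.00 (standard error 0.05). Of 15 metalloproteinase inhibitors and activators, 11 were tested, 7 lower and 2 higher, with a median of -0.53. Plau, urokinase, had 836, 888 and 735 counts with shlucif and between 0 and 2 with the Arf1 hairpins. Plau also passed the filter through the shlucif libraries alone, so its fall was bound to be seen. Plat, the tissue-type activator, changed by -1.94 (standard error 0.07) and Timp2, an inhibitor of metalloproteinases, by -1.30 (standard error 0.08). Pcsk6, a proprotein convertase, was higher by 0.76 (standard error 0.09).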

How the data were processed

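RNA was sequenced from 9 libraries of N2a cells. The authors deposited 1 table that gives each gene a whole-number read count, not normalized, and an FPKM value in every library. The FPKM values deposited equal the count divided by the listed length and the column total. The submitters' processing notes name the build mm10. The aligner, the counting tool and the use of strand are not given in the sources used here. Column names hold 1 or 2 after shArf and then 1 to 3, which was read as the hairpin and then the replicate, since the labels write the hairpin as shArf1-1 or shArf1-2. Coordinates in the table do not match GRCm38 (514 of 21795 identifiers have the same start), so positions come from GENCODE and RefSeq by identifier.

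Counts were analysed in R 4.3.3 with edgeR 4.0.16. After filterByExpr had removed low genes, TMM factors scaled the rest, and a robust quasi-likelihood fit (glmQLFit, glmQLFTest) set 6 Arf1 hairpin libraries against 3 of shlucif. In that fit a difference between the hairpins counts as spread and widens the standard error. A fit of the 3 groups gave each hairpin against shlucif and the hairpins against each other. A call needs p under 0.05 after Benjamini-Hochberg correction across the 12448 genes that passed the filter. The 95% intervals use the moderated degrees of freedom of the fit. Replicate libraries of a group differed by more than counting noise (chi-square per degree of freedom between 2.99 and 8.61), and no pair was counted as 1. The tests of shArf1-1 against shlucif and of the hairpins against each other were also run on simulated counts. Far fewer genes changed in the simulation than in these data. The fit of both hairpins together against shlucif was not checked in this way. Totals limit the precision of low genes, and 3 counts served as the floor.

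The members and lists were chosen with earlier results of these data known. Named genes were the 8 largest called rises and falls whose libraries did not overlap and whose higher group reached a mean of 1 CPM, the 5 largest hairpin differences in each direction, the 3 highest genes of each family by FPKM and those nearest the limit of the count rule. Only 7 rises and 2 members lower with shArf1-2 met this rule. Other members were named after their values were seen. The alternatives tried were upper quartile or library size scaling, DESeq2 1.42.0, no filter, at least 10 counts in every library, limma 3.58.1 on log2(FPKM + 1) or log2(FPKM + 0.1), a replicate block, the 6 Arf1 hairpin libraries alone, the average of the hairpin contrasts, and leaving out each library. Values of a few single genes are not reported here.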

Additional observations from a re-analysis of the deposited data

Results flagged for a closer look

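For 13 of the named members the effects of the hairpins against shlucif differed from each other in the test of the difference itself (edgeR, corrected by Benjamini-Hochberg over all genes tested). Log2 differences, shArf1-2 minus shArf1-1, were 1.41 for Col1a1, 0.69 for Itga2b, 0.60 for Lama5, 0.50 for Col18a1, 0.49 for Adamts4, 0.37 for Mmp11, 0.37 for Itga3, 0.25 for Col4a1, 0.25 for Itga6, 0.19 for Mmp17 and 0.15 for Lamc1. They were -0.29 for Lama4 and -0.39 for Mmp15. For Itga6 the hairpins passed the threshold against shlucif in opposite directions, which is a description and not read as a test. The log2 change was -0.14 with shArf1-1 (edgeR, adjusted p = 0.0156) and 0.11 with shArf1-2 (edgeR, adjusted p = 0.0486). No group held more than 3 libraries, so single libraries were not tested against their group.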

How the results depend on the processing

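Of 106 recomputed counts and medians, 105 stayed close to their value. For a count this meant within 1.5 times its value. For the median it meant the same sign and a shift no larger than the median standard error of the members' log2 changes. The median log2 change of the tested members moved from -0.58 to -0.31 with limma on log2(FPKM + 1), whose added constant pulls low genes toward 0. Leaving out each library in turn gave 38 to 42 members lower, 5 to 7 higher, 11 to 16 that differed between the hairpins, 45 to 52 with shArf1-1 and 43 to 49 with shArf1-2 against shlucif, and a median of -0.63 to -0.57.

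A few values near 0 changed sign. For Itga6 against shlucif these were 0.0565 with library size scaling, 0.0477 with limma on log2(FPKM + 1), 0.0487 with limma on log2(FPKM + 0.1), and -0.0425 to 0.0234 when 1 library was left out. Between the hairpins, Itga5 gave 0.0176 with library size scaling, 0.0173 with upper quartile scaling, 0.0004 without a filter, 0.0019 with at least 10 counts in every library, 0.0117 with limma on log2(FPKM + 1), 0.0154 with limma on log2(FPKM + 0.1), 0.0006 in the fit of the 6 Arf1 hairpin libraries, and -0.0875 to 0.1174 when 1 library was left out. Leaving out 1 library also gave hairpin differences from -0.0207 to 0.3782 for Col7a1, -0.9422 to 0.0362 for Itga4, -0.0725 to 0.0134 for Itgb1, -1.2177 to 0.0224 for Itgb2 and -0.5197 to 0.0712 for Itgb7. The cause of these changes was not tested. Mmp17 against shlucif lost its call with both limma settings (adjusted p = 0.0503 each), and Mmp24 gained one with library size scaling (0.0333) and with limma (0.0400 and 0.0392).

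Same-numbered libraries of different groups deviated together with correlations between -0.08 and 0.09, so the numbers were not taken to pair the samples. With the replicate block, 40 members were lower, 7 higher and 16 differed between the hairpins. Itgax, Itga4, Itgb2, Adamts7 and Col1a1 gave no value with at least 10 counts in every library. Depth limits members under about 20 counts.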
